A study of Homo sapiens with 12 samples.

Results

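The genes described here are 42 genes of cornification and late squamous differentiation, chosen by symbol from what they are known to do and with the keratins left out. The choice was made with earlier results of these data known. All 42 were found among the 25382 symbols of the deposited count table. They were read in Cal27, a cell line derived from a squamous cell carcinoma of a human tongue, taken through a conditioning phase of 5 days and a replating phase of 1 day. Gels were polyacrylamide coated with collagen. In the soft-to-soft condition both phases used a soft gel of 0.48 kPa and no treatment. In the stiff-to-soft condition the conditioning gel was stiff, at 20 kPa, and the replating gel soft. Lysophosphatidic acid (LPA), a signalling phospholipid with its own cell-surface receptors, was given on soft gels during conditioning in the remaining 2 conditions. One of these, LPA-to-soft, was replated on soft gels with no further treatment. The other, LPA-to-FAKi, was replated on soft gels with inhibition of focal adhesion kinase (FAK), a kinase of integrin adhesions. Thus all 12 libraries came from cells that spent the last day on a soft gel. The series design calls stiff-to-soft and LPA-to-soft a class that learned, and soft-to-soft and LPA-to-FAKi a class that did not learn or forgot, 6 libraries each, and asks how their transcripts differ. Each condition has 3 libraries that carry replicate numbers 1, 2 and 3. The labels do not say whether these were separate cultures, so each p-value speaks only to the spread among these libraries, which may be technical.

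Cornification is the last step of keratinocyte differentiation. Structural proteins such as involucrin, the small proline-rich (SPRR) proteins and the late cornified envelope (LCE) proteins are cross-linked by transglutaminases onto a scaffold of plakin proteins under the plasma membrane, and lipids made and exported by the cell are attached outside it. Kallikrein-related peptidases (KLK) and other serine proteases cut the junctions that hold the cornified cells, under the control of protease inhibitors. The lining of the mouth that is not keratinised uses only a part of this programme, and squamous carcinomas of the mouth keep it to very different degrees.

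Total counts were 62953957 to 122311183 per library. The members took 0.0794% to 0.392% of them. Markers of basal keratinocytes and of epithelium were counted in every library. KRT5, a keratin of the basal layer, stood at 2700 to 5780 CPM (each library's counts scaled to a common total, with TMM factors), TP63, the master factor of stratified epithelium, at 250 to 502 CPM, and CDH1, which encodes E-cadherin, at 258 to 356 CPM. KRT14, a further basal keratin, ranged more widely, from 101 to 1050 CPM. The simple-epithelial keratins KRT8 and KRT18 stood at 372 to 1610 and 374 to 1040 CPM. Marker lists of other cell types were partly present. The 8 leukocyte markers summed to 663 to 1840 CPM, nearly all of it CD74 at 616 to 1820 CPM, with CD68 at 9.49 to 41.9 CPM, PTPRC at most 0.0545 CPM and CD3E at no count. The 9 fibroblast markers summed to 14.6 to 36.5 CPM (COL1A1 12.7 to 30.9, THY1 at most 0.0198), the 6 endothelial ones to 5.74 to 37.8 CPM (CDH5 4.4 to 36.3, VWF 1.12 to 4.51, PECAM1 at most 0.0394) and the 4 of melanocytes to 0.615 to 1.29 CPM, with no count of MLANA or TYR. Their part in the results was not tested. In soft-to-soft libraries 1 and 2, 42.9% and 42.2% of the counts from 1 to 19 were even, against 96.8% to 97.8% in the other 10 libraries. The reason is not given in the sources used here, and the counts of members called between replicate numbers and the calls against soft-to-soft are also given without these 2 libraries.

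Expression of the members followed replicate number far more than condition. Their mean log2 CPM was 4.13, 3.49 and 2.29 in libraries 1, 2 and 3 of soft-to-soft, 3.62, 2.04 and 1.76 in stiff-to-soft, 3.65, 2.71 and 2.02 in LPA-to-soft and 4.5, 2.98 and 2.06 in LPA-to-FAKi. Number 1 was the highest and number 3 the lowest of the 3 libraries in each condition, and all 4 libraries numbered 1 lay above the other 8. Within each replicate number stiff-to-soft had the lowest mean. These are means over the 39 members that passed the filter on low counts. TGM3, a transglutaminase, DSG1, a desmosomal cadherin of the upper layers, and MAL, a membrane proteolipid, did not pass, and had at most 2, 8 and 16 counts in any library.

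**Figure D1:**
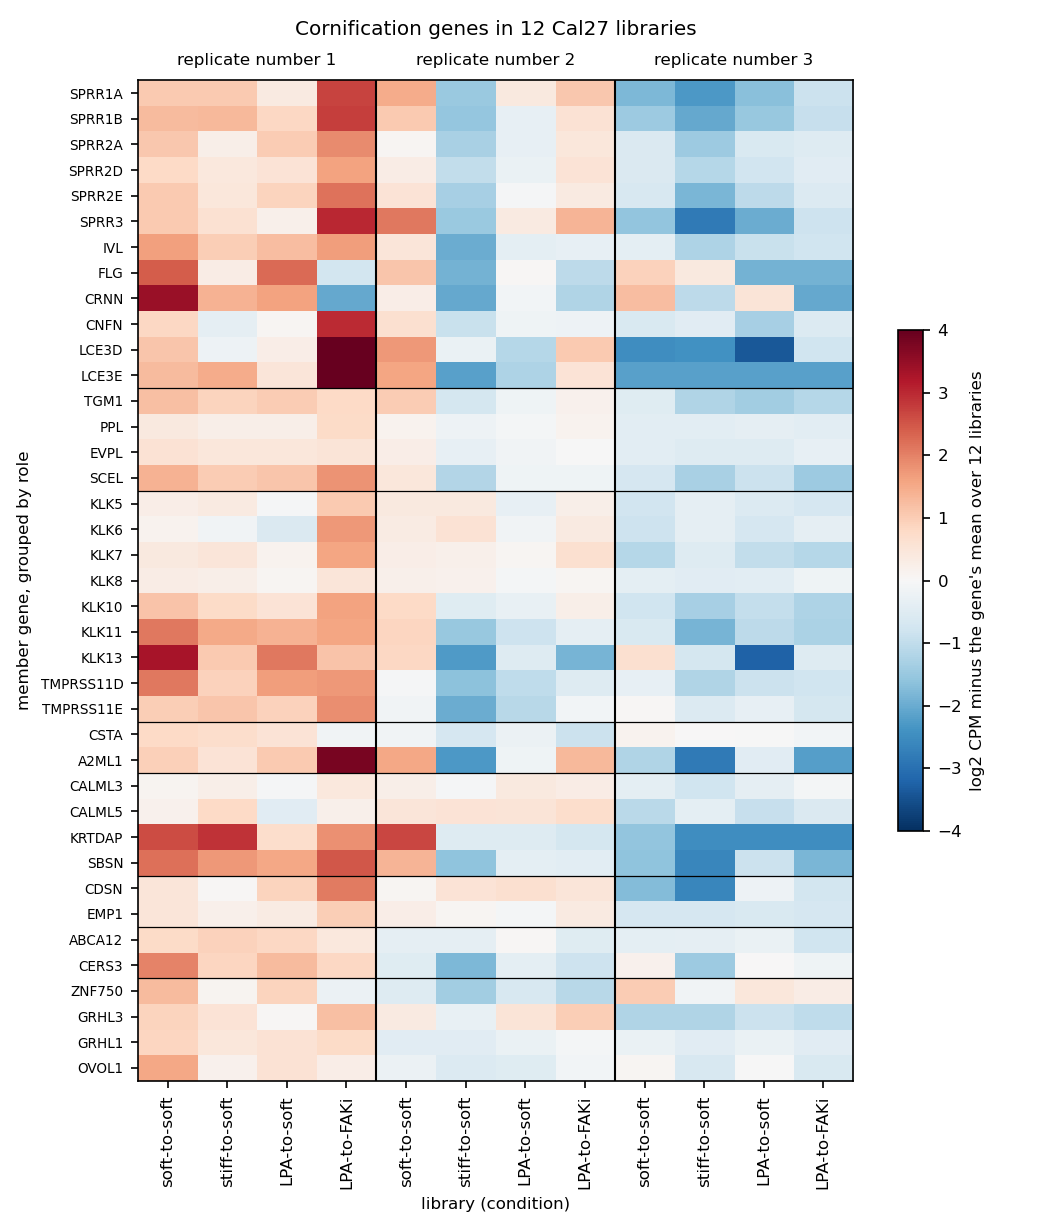
Log2 CPM of the 39 tested members (rows, ordered by role and separated by lines), each less its mean over the 12 libraries, by library (columns, grouped by replicate number). Red is above and blue below the gene's mean, and colours saturate at 4 log2 units. Most rows are red under number 1 and blue under number 3, and the mean over members is highest in LPA-to-FAKi number 1.

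The sum of squares of log2 CPM was split by gene into condition, replicate number and a remainder. Replicate number held a median of 71.8% over the 39 members against 50.5% over the 15437 genes tested, and condition held 17.7% against 19.3%. Replicate number held over 50% of the sum in 34 members (87.2%) and in 50.5% of all genes. The highest share for replicate number was that of GRHL1 at 91.6%, and the lowest were those of CRNN at 23.1% and FLG at 26.8%. For these 2, condition held 59.2% and 45.2%.

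Genes were tested between replicate numbers in a model that also held condition, 4 libraries to each number. Of the 39 members, 36 were higher in number 1 than in number 3 and none was lower (edgeR quasi-likelihood test, Benjamini-Hochberg adjusted p under 0.05). Of all genes tested 39.8% differed, 19.2% higher and 20.6% lower. Between numbers 1 and 2, 24 members were higher and none lower, where 36% of all genes differed, 17% higher and 19% lower. Between numbers 2 and 3, 23 members were higher and 2 lower, where 23.7% of all genes differed, 12.2% higher and 11.6% lower. Without soft-to-soft 1 and 2, 34 members were higher in number 1 than in number 3, 27 higher in number 1 than in number 2, and 14 higher and 2 lower in number 2 than in number 3. The shares of all genes called without these 2 libraries are not given. With all 12 libraries the median log2 difference of the members was 1.84, 1.02 and 0.74 in these comparisons, and that of all genes 0.00305, -0.000206 and 0.00869. The labels do not say what a replicate number stands for. In bulk RNA a larger share of differentiating cells and more transcript in each cell cannot be told apart.

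**Figure D2:**
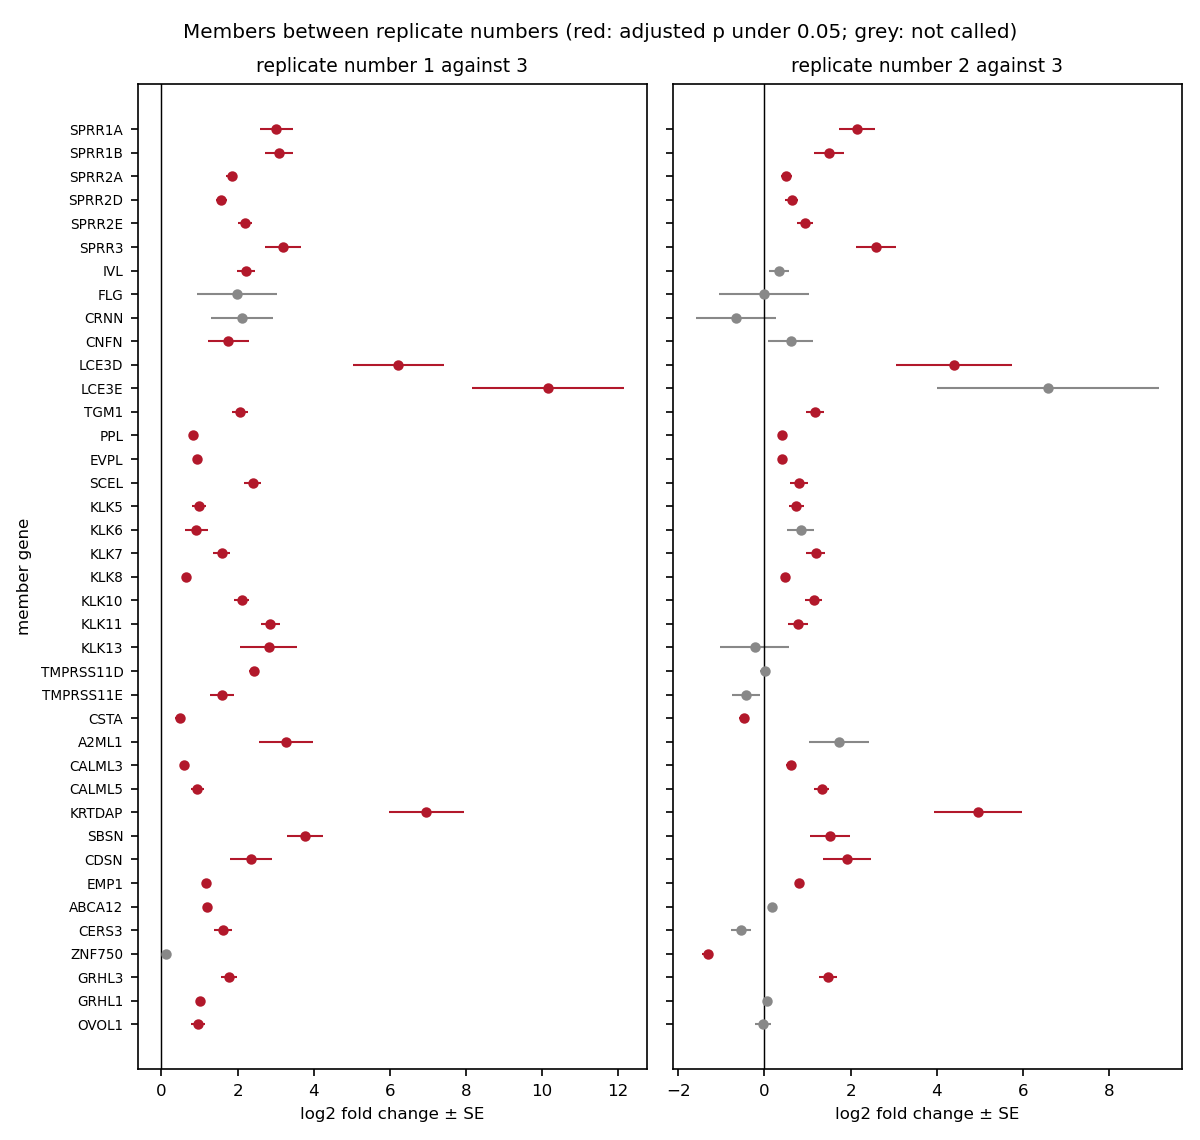
Log2 fold change (points) and its SE (bars) of each member between replicate numbers 1 and 3 (left) and 2 and 3 (right), with conditions in the model. Red points passed the adjusted p of 0.05 and grey ones did not. All 39 points on the left lie above 0, and on the right ZNF750 and CSTA are the red points below 0.

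Of the 12 envelope precursors 10 were higher in number 1 than in number 3, and the median difference of the 12 was 2.21 on the log2 scale. The SPRR proteins are short proline-rich bridges between other envelope proteins. SPRR1B stood in replicates 1, 2 and 3 at 387, 333 and 58.2 CPM in soft-to-soft, 396, 54.6 and 38.8 in stiff-to-soft, 287, 127 and 56.4 in LPA-to-soft and 1093, 240 and 83.9 in LPA-to-FAKi, and this order of replicates holds for all values below. Its libraries numbered 1 all lay above those numbered 3, by 3.09 ± 0.36 (log2, edgeR, adjusted p = 9.98e-05), and LPA-to-FAKi number 1 was the highest of all. SPRR1A stood at 138, 185 and 19.1 CPM in soft-to-soft, 137, 23.8 and 13.5 in stiff-to-soft, 85.2, 87.3 and 21 in LPA-to-soft and 432, 139.5 and 36.7 in LPA-to-FAKi. All libraries numbered 1 lay above those numbered 3 and number 2 overlapped both, with differences from number 3 of 3.02 ± 0.42 for number 1 and 2.15 ± 0.41 for number 2 (log2, edgeR, adjusted p = 0.000287 and 0.00506). SPRR3, the member of the family known from oral and oesophageal lining, stood at 11.8, 25 and 1.93 CPM in soft-to-soft, 8.87, 2.04 and 0.789 in stiff-to-soft, 6.62, 7.35 and 1.43 in LPA-to-soft and 47.1, 14.8 and 3.23 in LPA-to-FAKi. It was higher in number 2 than in number 1 in soft-to-soft and LPA-to-soft, and exceeded number 3 by 3.19 ± 0.47 in number 1 (log2, edgeR, adjusted p = 0.000394).

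SPRR2A stood at 81, 40.1 and 25.6 CPM in soft-to-soft, 45.4, 15.4 and 14 in stiff-to-soft, 77.5, 30.6 and 25.3 in LPA-to-soft and 143, 52.6 and 26.6 in LPA-to-FAKi. SPRR2D stood at 70.6, 49.4 and 27.2 CPM in soft-to-soft, 53.9, 20.4 and 18.6 in stiff-to-soft, 58.8, 33.4 and 23.8 in LPA-to-soft and 124, 59.6 and 29.6 in LPA-to-FAKi. SPRR2E stood at 30, 21.3 and 9.22 CPM in soft-to-soft, 19.9, 5.75 and 4.04 in stiff-to-soft, 26.6, 14 and 6.95 in LPA-to-soft and 65, 18.8 and 9.84 in LPA-to-FAKi. For all 3 genes number 1 was the highest and number 3 the lowest library of each condition, and number 1 exceeded number 3 by 1.84 ± 0.14, 1.57 ± 0.15 and 2.19 ± 0.2 (log2, edgeR, adjusted p = 6.97e-06, 2.53e-05 and 2.02e-05). These transcripts resemble each other: 32.7% of the 50-base words of SPRR2A, 26.8% of those of SPRR2D and 23% of those of SPRR2E also occur in other SPRR2 genes, so counts may have been split or lost among them. The same holds for 11.3% of SPRR1A, shared with SPRR1B.

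IVL encodes involucrin, among the first proteins laid into the envelope. It stood at 47.4, 21 and 11.4 CPM in soft-to-soft, 29.8, 3.76 and 6.45 in stiff-to-soft, 35.5, 11.4 and 8.13 in LPA-to-soft and 48, 12 and 8.6 in LPA-to-FAKi. Its 4 libraries numbered 1 lay above the other 8, by 2.23 ± 0.23 over number 3 and 1.89 ± 0.23 over number 2 (log2, edgeR, adjusted p = 4.94e-05 and 0.000192), and numbers 2 and 3 overlapped. CNFN, cornifelin, stood at 3.33, 2.88 and 1.21 CPM in soft-to-soft, 1.45, 0.999 and 1.36 in stiff-to-soft, 1.96, 1.65 and 0.718 in LPA-to-soft and 14.9, 1.59 and 1.26 in LPA-to-FAKi. One library, LPA-to-FAKi number 1, was 4.47 times the next of its number, and CNFN was higher in number 1 than in number 3 by 1.75 ± 0.54 (log2, edgeR, adjusted p = 0.0235). That call was lost without soft-to-soft 3, LPA-to-soft 3 or LPA-to-FAKi 3, at adjusted p = 0.0721, 0.0659 and 0.103.

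The late envelope genes were near the limit of detection but for a single library. LCE3D stood at 0.442, 0.683 and 0.0175 CPM in soft-to-soft, 0.163, 0.158 and 0.0197 in stiff-to-soft, 0.236, 0.0768 and 0 in LPA-to-soft and 19.3, 0.423 and 0.101 in LPA-to-FAKi. LCE3E stood at 0.201, 0.254 and 0 CPM in soft-to-soft, 0.235, 0 and 0 in stiff-to-soft, 0.109, 0.0192 and 0 in LPA-to-soft and 9.98, 0.114 and 0 in LPA-to-FAKi. LPA-to-FAKi number 1 held 1519 counts of LCE3D and 784 of LCE3E, and no other library held more than 52 and 26. LCE3E had no count in any library numbered 3, which allows up to 0.025 to 0.0378 CPM in them (3 counts, counting error only). Low counts in these libraries were nearly all even, for which this limit makes no allowance, so it may be too low. Between numbers 1 and 3 both were called (edgeR, adjusted p = 0.00199 and 0.00445), and of their 50-base words 14% and 14.1% are shared between them. FLG encodes filaggrin, which bundles keratin filaments, and CRNN encodes cornulin, a calcium-binding protein of squamous lining. FLG stood at 0.388, 0.143 and 0.123 CPM in soft-to-soft, 0.0723, 0 and 0.0789 in stiff-to-soft, 0.345, 0.0576 and 0 in LPA-to-soft and 0.0255, 0.0163 and 0 in LPA-to-FAKi. CRNN stood at 0.897, 0.0795 and 0.175 CPM in soft-to-soft, 0.199, 0 and 0.0197 in stiff-to-soft, 0.236, 0.0576 and 0.1 in LPA-to-soft and 0, 0.0163 and 0 in LPA-to-FAKi. Both reached their highest CPM in soft-to-soft number 1, and both were at 0 to 2 counts in all LPA-to-FAKi libraries. Neither was called between numbers 1 and 3 (edgeR, adjusted p = 0.159 and 0.0578), and CRNN was called between numbers 1 and 2 (2.79 ± 0.9 on the log2 scale, edgeR, adjusted p = 0.0326), a call that held in 3 of the 12 fits that left out a library each, those without an LPA-to-FAKi library, and stood at adjusted p of 0.0545 to 0.146 in the other 9.

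Several precursor genes were high and low in the same replicate numbers. The upstream sequence of IVL, SPRR1A, SPRR1B, SPRR2A and SPRR3 is shown, with TMPRSS11D as the serine protease described below. These are a part of the precursors with that pattern. Each line is the 250 bases before the gene's start in RefSeq, on GRCh38.p14, 5′ to 3′ on the gene's strand. Capitals mark a match to the AP-1 word TGANTCA on either strand or to the TATA word TATAAA on the gene strand. SPRR1A is from chr1:152983831-152984080 and SPRR1B from chr1:153030953-153031202, both on the plus strand, as are SPRR3 from chr1:153001499-153001748 and IVL from chr1:152908296-152908545. SPRR2A is from chr1:153057513-153057762 and TMPRSS11D from chr4:67884003-67884252, both on the minus strand.
SPRR1A: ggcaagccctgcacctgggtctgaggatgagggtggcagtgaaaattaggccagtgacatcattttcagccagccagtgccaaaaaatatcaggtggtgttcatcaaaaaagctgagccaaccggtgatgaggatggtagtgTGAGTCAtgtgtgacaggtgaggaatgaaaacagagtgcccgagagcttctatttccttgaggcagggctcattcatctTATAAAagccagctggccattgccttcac
SPRR1B: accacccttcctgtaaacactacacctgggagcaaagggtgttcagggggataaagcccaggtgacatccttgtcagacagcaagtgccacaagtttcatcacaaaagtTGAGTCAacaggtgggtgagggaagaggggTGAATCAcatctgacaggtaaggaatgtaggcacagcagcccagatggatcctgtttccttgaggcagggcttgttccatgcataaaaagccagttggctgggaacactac
SPRR2A: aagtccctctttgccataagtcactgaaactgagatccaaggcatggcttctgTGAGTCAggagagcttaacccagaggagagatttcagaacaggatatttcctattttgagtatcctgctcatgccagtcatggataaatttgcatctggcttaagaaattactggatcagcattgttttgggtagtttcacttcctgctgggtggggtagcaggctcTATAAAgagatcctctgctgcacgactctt
SPRR3: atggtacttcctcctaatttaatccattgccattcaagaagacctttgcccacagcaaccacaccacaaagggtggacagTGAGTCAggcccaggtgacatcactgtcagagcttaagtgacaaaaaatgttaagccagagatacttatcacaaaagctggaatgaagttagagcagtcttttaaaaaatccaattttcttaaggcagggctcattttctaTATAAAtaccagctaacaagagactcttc
IVL: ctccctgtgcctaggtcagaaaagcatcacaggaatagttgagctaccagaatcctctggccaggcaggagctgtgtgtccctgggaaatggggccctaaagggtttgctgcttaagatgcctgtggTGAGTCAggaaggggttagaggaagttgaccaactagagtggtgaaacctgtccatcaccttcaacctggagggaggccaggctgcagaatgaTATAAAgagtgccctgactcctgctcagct
TMPRSS11D: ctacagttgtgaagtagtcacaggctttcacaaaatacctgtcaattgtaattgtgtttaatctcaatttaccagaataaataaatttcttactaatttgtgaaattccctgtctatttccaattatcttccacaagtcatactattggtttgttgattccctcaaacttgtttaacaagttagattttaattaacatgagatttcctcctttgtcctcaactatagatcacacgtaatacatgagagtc
In the 5 precursor genes an AP-1 word lies between 102 and 197 bases before the start, and SPRR1B holds a further one. All of them but SPRR1B also hold a TATA word that begins 29 or 30 bases before the start. Of precursors not shown, CNFN, LCE3D and LCE3E were also called between numbers 1 and 3 and held neither word. Most counts of LCE3D and LCE3E came from LPA-to-FAKi number 1. FLG and CRNN held both words. Neither gene was called there, at 1.97 ± 1.05 and 2.12 ± 0.81 (log2), with at most 38 and 67 counts in any library. Whether the words go with the replicate pattern was not tested. AP-1 is the dimer of Fos and Jun proteins, a known regulator of envelope genes. An entry of this length was found for 33 of the 42 members. The AP-1 word occurred in 11 of them (33.3%) and in 6.6% of all 27305 upstream sequences, and the TATA word in 10 (30.3%) and in 7.17%. Of the other words searched on both strands, the C/EBP word TTGCNNAA occurred in 4 members (12.1%) against 9.13%, and the grainyhead word AACCGGTT and a word like the interferon-stimulated response element in 0 against 0.106% and 3.07%. TMPRSS11D held none of the words searched. Words can overlap each other, the matches describe letters only, and many of the members lie beside each other in gene clusters.

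Of the genes for cross-linking and scaffold, all 4 tested were higher in number 1 than in number 2 and in number 2 than in number 3. PPL encodes periplakin and EVPL envoplakin, the plakins on which the envelope is built. PPL stood at 249, 208 and 139 CPM in soft-to-soft, 222, 164 and 140.4 in stiff-to-soft, 220.1, 176 and 148 in LPA-to-soft and 322, 207 and 140.2 in LPA-to-FAKi. No library numbered 1 overlapped one numbered 2 or 3, nor did numbers 2 and 3 overlap, and the difference of 1 from 3 was 0.82 ± 0.09 (log2, edgeR, adjusted p = 7.13e-05). EVPL stood at 114, 91.9 and 57.1 CPM in soft-to-soft, 105, 60.6 and 53.2 in stiff-to-soft, 104, 70 and 53.1 in LPA-to-soft and 108, 76.2 and 61.4 in LPA-to-FAKi. Its libraries numbered 1 lay above the other 8, and number 1 exceeded number 3 by 0.95 ± 0.08 (log2, edgeR, adjusted p = 1.16e-05). SCEL, sciellin, a precursor of the envelope, stood at 56.7, 29.3 and 13.6 CPM in soft-to-soft, 43.3, 9.61 and 8.81 in stiff-to-soft, 46.7, 19.1 and 11.9 in LPA-to-soft and 75.7, 19.3 and 7.89 in LPA-to-FAKi. TGM1, the membrane-bound transglutaminase, stood at 6.64, 5.87 and 2.06 CPM in soft-to-soft, 5.42, 1.78 and 1.25 in stiff-to-soft, 5.85, 2.57 and 1.1 in LPA-to-soft and 5.01, 3.29 and 1.3 in LPA-to-FAKi. These exceeded number 3 by more, 2.4 ± 0.22 and 2.06 ± 0.21 (log2, edgeR, adjusted p = 2.42e-05 and 4.74e-05), and in number 3 TGM1 was at or under 2.06 CPM in every condition.

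All 9 serine proteases were higher in number 1 than in number 3. KLK5 and KLK7 are the trypsin-like and chymotrypsin-like enzymes that cut corneodesmosomes. KLK5 stood at 111, 119.6 and 54.3 CPM in soft-to-soft, 119, 120 and 71.7 in stiff-to-soft, 89.5, 72.8 and 63.6 in LPA-to-soft and 188, 109 and 58.3 in LPA-to-FAKi. KLK7 stood at 32.6, 29.5 and 11.3 CPM in soft-to-soft, 34.5, 28.7 and 17.2 in stiff-to-soft, 27, 26 and 12.6 in LPA-to-soft and 74, 38.6 and 11.3 in LPA-to-FAKi. For both, numbers 1 and 2 overlapped and lay above number 3, by 0.99 ± 0.17 and 1.58 ± 0.22 for number 1 (log2, edgeR, adjusted p = 0.00117 and 0.000312). KLK8 stood at 44.9, 41.3 and 27.5 CPM in soft-to-soft, 42.3, 41 and 26.1 in stiff-to-soft, 37.9, 34.5 and 26.9 in LPA-to-soft and 50.7, 38.2 and 31.8 in LPA-to-FAKi. It had the smallest difference of the proteases, with number 1 above number 3 by 0.64 ± 0.07 (log2, edgeR, adjusted p = 9.01e-05), and 47.2% of its 50-base words also occur in the annotated locus AC011473.4, so its counts are uncertain. KLK6 stood at 12.2, 13.7 and 6.15 CPM in soft-to-soft, 9.85, 16.4 and 8.49 in stiff-to-soft, 7.31, 9.9 and 6.88 in LPA-to-soft and 36.9, 14 and 8.47 in LPA-to-FAKi. Its number 1 libraries overlapped number 3, the difference of 0.92 ± 0.31 (log2, edgeR, adjusted p = 0.0366) was not called without LPA-to-FAKi number 1, at 0.42 (adjusted p = 0.0517). It was also lost without LPA-to-FAKi 3, LPA-to-soft 2, stiff-to-soft 3 or either of soft-to-soft 1 and 3, at adjusted p of 0.0503 to 0.151, and without both soft-to-soft 1 and 2, at 0.0934.

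KLK10 stood at 77, 60.6 and 19.8 CPM in soft-to-soft, 59.6, 24.6 and 13.7 in stiff-to-soft, 50.4, 28.2 and 17.8 in LPA-to-soft and 106, 41 and 14.9 in LPA-to-FAKi. KLK11 stood at 29.3, 12.1 and 4.38 CPM in soft-to-soft, 19.1, 2.35 and 1.85 in stiff-to-soft, 17.8, 3.76 and 3.26 in LPA-to-soft and 20.1, 5.25 and 2.81 in LPA-to-FAKi. Number 1 exceeded number 3 by 2.11 ± 0.2 and 2.86 ± 0.24 (log2, edgeR, adjusted p = 2.79e-05 and 1.41e-05), and the KLK11 libraries numbered 1 lay above all others. KLK13 was scarce and stood at 1.87, 0.318 and 0.28 CPM in soft-to-soft, 0.379, 0.0198 and 0.0986 in stiff-to-soft, 0.818, 0.115 and 0 in LPA-to-soft and 0.407, 0.0325 and 0.113 in LPA-to-FAKi. With 0 to 140 counts per library it was called at 2.82 ± 0.75 (log2, edgeR, adjusted p = 0.0117), and not without soft-to-soft 3 (adjusted p = 0.0523) or without soft-to-soft 1 and 2 (0.0689).

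TMPRSS11D and TMPRSS11E are membrane-bound trypsin-like proteases of squamous and airway lining. TMPRSS11D stood at 37, 8.33 and 6.82 CPM in soft-to-soft, 16.4, 2.71 and 3.69 in stiff-to-soft, 27.6, 4.26 and 4.71 in LPA-to-soft and 28.3, 5.94 and 4.89 in LPA-to-FAKi. Its number 1 libraries stood apart from all others, by 2.42 ± 0.12 over number 3 and 2.41 ± 0.12 over number 2 (log2, edgeR, adjusted p = 1.33e-06 and 1.94e-06), while numbers 2 and 3 overlapped and differed by 0.01 ± 0.12 (adjusted p = 0.971). TMPRSS11E stood at 4.2, 1.92 and 2.19 CPM in soft-to-soft, 4.61, 0.524 and 1.45 in stiff-to-soft, 4, 0.98 and 1.69 in LPA-to-soft and 7.79, 1.97 and 1.3 in LPA-to-FAKi. Its number 1 libraries also lay above all others, by 1.6 ± 0.31 over number 3 (log2, edgeR, adjusted p = 0.00206).

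Both protease inhibitors were higher in number 1 than in number 3. CSTA encodes cystatin A, which inhibits cysteine proteases and is itself built into the envelope. It stood at 147, 76.4 and 93.2 CPM in soft-to-soft, 137, 52.9 and 84.6 in stiff-to-soft, 124, 72.2 and 83.5 in LPA-to-soft and 76.9, 46.4 and 77.6 in LPA-to-FAKi. All 4 libraries numbered 2 were the lowest, under number 3 by 0.48 ± 0.12 and under number 1 by 0.96 ± 0.12 (log2, edgeR, adjusted p = 0.015 and 0.000207). The difference from number 3 was lost without LPA-to-FAKi 2 or 3, at adjusted p = 0.0504 and 0.0502. CSTA was higher in number 1 than in number 3 in the other conditions, and level in LPA-to-FAKi. A2ML1, a broad inhibitor of the alpha-2-macroglobulin family, stood at 2.4, 3.69 and 0.525 CPM in soft-to-soft, 1.82, 0.237 and 0.158 in stiff-to-soft, 2.58, 1.1 and 0.893 in LPA-to-soft and 17.5, 3.07 and 0.252 in LPA-to-FAKi. It was higher in number 1 than in number 3 by 3.28 ± 0.71 (log2, edgeR, adjusted p = 0.00386), and LPA-to-FAKi number 1 was 6.77 times the next library of its number.

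All 4 calcium-binding and secreted members were higher in number 1 than in number 3. CALML3 and CALML5 encode calmodulin-like proteins of epithelium. CALML3 stood at 149.8, 163 and 106 CPM in soft-to-soft, 161, 132 and 79.8 in stiff-to-soft, 135, 179 and 108 in LPA-to-soft and 186, 168 and 131 in LPA-to-FAKi. CALML5 stood at 6.79, 8.58 and 2.84 CPM in soft-to-soft, 10.6, 8.82 and 4.65 in stiff-to-soft, 4.47, 8.8 and 3.17 in LPA-to-soft and 7.02, 9.98 and 4.11 in LPA-to-FAKi. In both genes numbers 1 and 2 overlapped, and number 2 exceeded number 3 by 0.61 ± 0.11 and 1.33 ± 0.17 (log2, edgeR, adjusted p = 0.00341 and 0.000745). SBSN, suprabasin, a secreted protein of the suprabasal layers, stood at 6.14, 3.42 and 0.42 CPM in soft-to-soft, 4.43, 0.415 and 0.197 in stiff-to-soft, 3.91, 0.999 and 0.718 in LPA-to-soft and 7.51, 0.976 and 0.353 in LPA-to-FAKi. KRTDAP, another small secreted protein of differentiating keratinocytes, stood at 0.669, 0.699 and 0.0175 CPM in soft-to-soft, 0.813, 0.0593 and 0 in stiff-to-soft, 0.164, 0.0576 and 0 in LPA-to-soft and 0.382, 0.0488 and 0 in LPA-to-FAKi. SBSN exceeded number 3 by 3.77 ± 0.47 in number 1 (log2, edgeR, adjusted p = 0.000141), and KRTDAP had 18 to 90 counts in number 1 and 0 to 2 counts in number 3.

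EMP1, a membrane protein of the epithelial membrane protein family, and CDSN, corneodesmosin, were the tested junction and membrane members. EMP1 stood at 192, 165 and 85.2 CPM in soft-to-soft, 158, 144 and 86.2 in stiff-to-soft, 173, 129 and 88.9 in LPA-to-soft and 274, 177 and 86.7 in LPA-to-FAKi. CDSN stood at 0.321, 0.238 and 0.0525 CPM in soft-to-soft, 0.235, 0.336 and 0.0197 in stiff-to-soft, 0.436, 0.365 and 0.192 in LPA-to-soft and 1.02, 0.325 and 0.126 in LPA-to-FAKi. For both, numbers 1 and 2 lay above number 3 with no overlap, EMP1 by 1.17 ± 0.11 and CDSN by 2.36 ± 0.55 for number 1 (log2, edgeR, adjusted p = 2.75e-05 and 0.00575). Of the barrier lipid genes, ABCA12 encodes the lipid transporter of lamellar granules and CERS3 the ceramide synthase of very long acyl chains. ABCA12 stood at 27.9, 12.8 and 12.5 CPM in soft-to-soft, 31.2, 12.8 and 12.8 in stiff-to-soft, 29.2, 16.8 and 13.8 in LPA-to-soft and 21.9, 11.8 and 9.46 in LPA-to-FAKi. CERS3 stood at 6.28, 1.1 and 1.77 CPM in soft-to-soft, 2.84, 0.435 and 0.552 in stiff-to-soft, 3.75, 1.19 and 1.59 in LPA-to-soft and 2.8, 0.862 and 1.39 in LPA-to-FAKi. Both were high in number 1 alone, by 1.03 ± 0.08 and 2.15 ± 0.23 over number 2 (log2, edgeR, adjusted p = 2.54e-05 and 0.000107), and numbers 2 and 3 were not called different (0.188 and 0.119).

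Of the 4 transcription factors 3 were higher in number 1 than in number 3, and ZNF750 was not called. ZNF750, a factor that drives terminal differentiation downstream of p63, stood at 199.9, 58.2 and 166 CPM in soft-to-soft, 89.6, 31.5 and 75.9 in stiff-to-soft, 154, 53.4 and 114 in LPA-to-soft and 70.6, 38.1 and 101 in LPA-to-FAKi. Its number 2 libraries were the lowest of all, under number 3 by 1.32 ± 0.13 and under number 1 by 1.44 ± 0.14 (log2, edgeR, adjusted p = 0.000192 and 5.22e-05). Numbers 1 and 3 overlapped, at a difference of 0.12 ± 0.13 (adjusted p = 0.5). GRHL3, the grainyhead factor of barrier formation, stood at 19.9, 13.7 and 4.59 CPM in soft-to-soft, 15.6, 8.66 and 4.57 in stiff-to-soft, 11.1, 15.3 and 5.79 in LPA-to-soft and 24.4, 21.2 and 5.25 in LPA-to-FAKi. Numbers 1 and 2 overlapped, and both lay above number 3, by 1.77 ± 0.21 and 1.48 ± 0.21 (log2, edgeR, adjusted p = 0.000107 and 0.00112).

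GRHL1, the grainyhead factor tied to desmosomal cadherins, and OVOL1, a zinc finger factor that limits proliferation of differentiating keratinocytes, were high in number 1 alone. GRHL1 stood at 38.1, 15.3 and 17.6 CPM in soft-to-soft, 28.6, 15.5 and 15.5 in stiff-to-soft, 31.4, 17.7 and 17.6 in LPA-to-soft and 36, 20 and 15.2 in LPA-to-FAKi. OVOL1 stood at 124, 36 and 44.8 CPM in soft-to-soft, 48.4, 29.3 and 27.4 in stiff-to-soft, 63.5, 30.3 and 42 in LPA-to-soft and 51, 39.3 and 28.1 in LPA-to-FAKi. Number 1 exceeded number 3 by 1.02 ± 0.1 and 0.95 ± 0.19 and number 2 by 0.97 ± 0.1 and 0.99 ± 0.19 (log2, edgeR, adjusted p = 3.14e-05, 0.00221, 7.66e-05 and 0.00222). Of the 36 members called between numbers 1 and 3, 14 were also called in both other comparisons, among them SPRR1B, the SPRR2 genes, TGM1, PPL, EVPL and CSTA, which was lower in number 2 than in number 3. The 3 not called were FLG, CRNN and ZNF750. A further 8 were called between 1 and 2 and not between 2 and 3 (IVL, KLK13, TMPRSS11D, TMPRSS11E, ABCA12, CERS3, GRHL1 and OVOL1). Another 10 were called between 2 and 3 and not between 1 and 2 (SPRR1A, SPRR3, LCE3D, KLK5, KLK7, KLK8, CALML3, CALML5, CDSN and GRHL3), and 4 in neither. A call in one comparison and none in another does not show that the 2 differences differ, which was not tested. Leaving out each library in turn gave 33 to 37 members between numbers 1 and 3, and between numbers 2 and 3 it gave 17 to 27. Shares of all genes called in those fits are not given. Without soft-to-soft 1 and 2, 16 members were called between numbers 2 and 3 instead of 25. The calls lost there were those of CDSN, KLK5, KLK11, KRTDAP, LCE3D, PPL, SBSN, SCEL and SPRR2A, at adjusted p of 0.0569 for KRTDAP to 0.157 for SBSN.

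**Figure D3:**
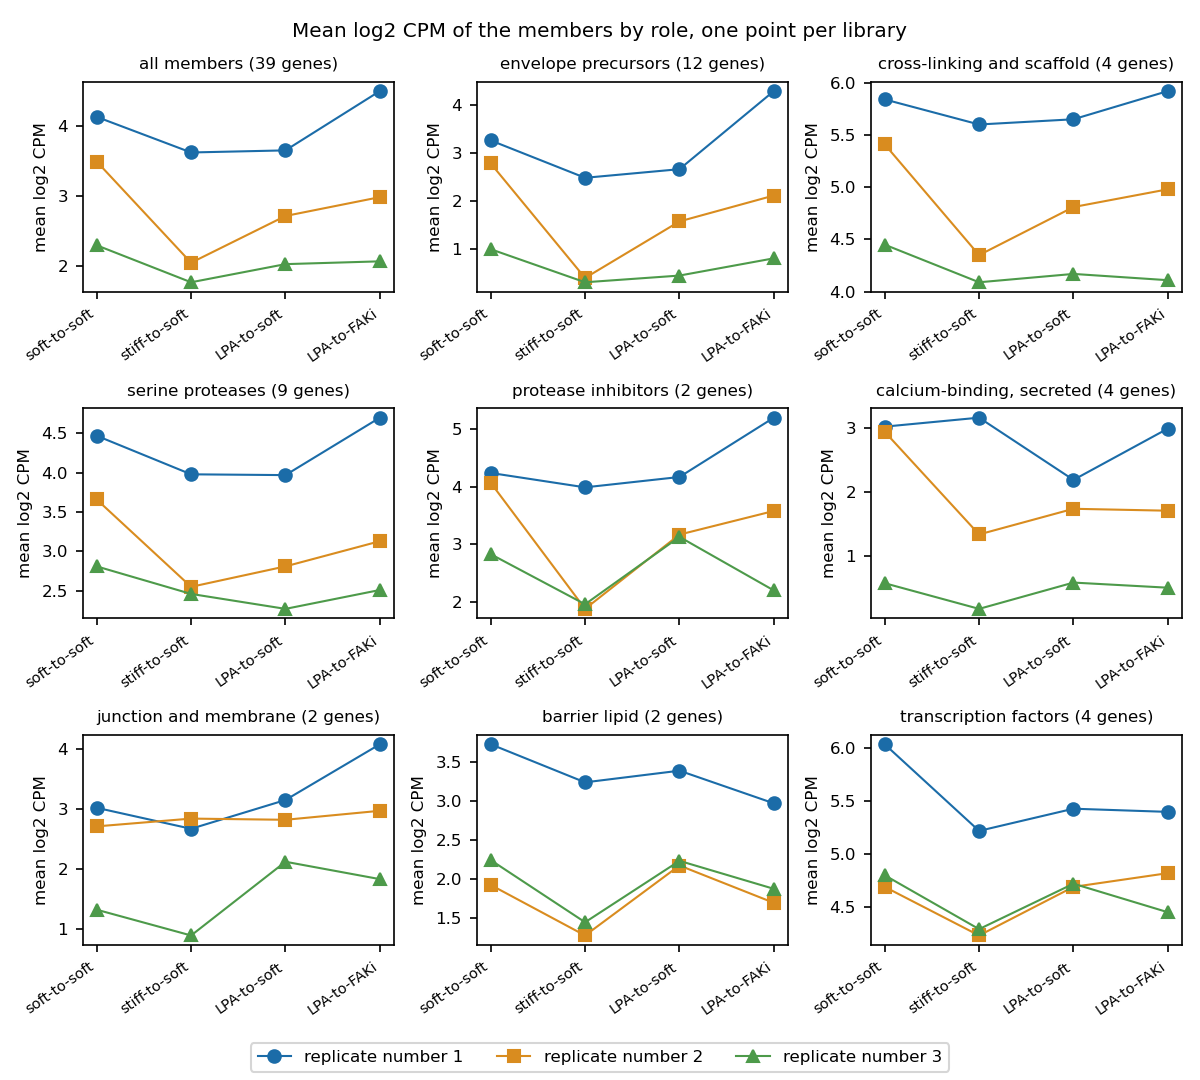
Mean log2 CPM over the tested members of each role (y axis, 1 panel per role, scales differ) in each library, by condition (x axis) and replicate number (colour and shape); lines join libraries of 1 number. Number 1 lies above number 3 in every panel and condition. In the barrier lipid and transcription factor panels numbers 2 and 3 lie close together.

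Other features differed between replicate numbers beside the members. Of all genes tested 39.8% differed between numbers 1 and 3, 19.2% higher and 20.6% lower. Of 10 basal keratinocyte markers 8 were higher in number 1 than in number 3 and none lower, with KRT15 by 1.4 ± 0.06 and KRT14 by 1.85 ± 0.28 (log2, edgeR, adjusted p = 5.11e-07 and 0.000431). The summed level of these 10 was 10300 to 11900 CPM in number 1, 5890 to 10500 in number 2 and 7160 to 9000 in number 3. Of 8 epithelial identity markers 2 were higher and 3 lower in number 1, the lower ones being the simple-epithelial keratins KRT8 and KRT18 and the adhesion molecule EPCAM, by 0.7 ± 0.13, 0.44 ± 0.11 and 0.56 ± 0.07 (log2). Of the 9 fibroblast markers, 4 of which passed the filter, COL1A1 was called higher, at 24.3 to 30.9 CPM in number 1 and 14.1 to 16.7 in number 3. The fibroblast sum was 25.2 to 36.5 CPM in number 1, 14.6 to 21.1 in number 2 and 16.5 to 21.1 in number 3. Of the 6 endothelial markers CDH5 was called lower, and of the 8 leukocyte markers CD14 and CD68 were called higher and CD74 lower. Mitochondrial transcripts took 5.54% to 8.01% of the counts in number 1, 4.31% to 5.05% in number 2 and 5.47% to 8.22% in number 3. The part of these in the members' differences was not tested.

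What cells keep of a stiff gel after a day on soft gel was asked by comparing stiff-to-soft with soft-to-soft. Without replicate number in the model no member was called and no gene was (0%; edgeR, at an unadjusted p under 0.05, 0 members and 300 genes; DESeq2, 0 members). With replicate number as a block 4 members fell in stiff-to-soft: TMPRSS11D, ZNF750, SPRR2A and SPRR2E. None rose. Of all genes 0.583% were called, 0.24% higher and 0.343% lower. DESeq2 with the block called 9 members and limma voom 6. The shares of all genes that DESeq2 and voom called are not given, here or in the comparisons below. Their counts of members therefore cannot be read against a background. Of the 39 members 34 lay below 0 in stiff-to-soft with a median of -0.87 (log2), where 50.7% of all genes did with a median of -0.0023.

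Within replicate numbers 1, 2 and 3 TMPRSS11D differed between stiff-to-soft and soft-to-soft by -1.18, -1.61 and -0.88 (log2 CPM). In the fit with the block it fell by 1.22 ± 0.14 (log2, edgeR, adjusted p = 0.00547), and the call held in each of the 12 fits that left out a library. ZNF750 differed by -1.16, -0.89 and -1.13 within the numbers and fell by 1.06 ± 0.15 (adjusted p = 0.017). Its 3 within-number differences were close, although its level was lowest in number 2. SPRR2A differed by -0.84, -1.38 and -0.87 and fell by 1.03 ± 0.15 (adjusted p = 0.02). SPRR2E differed by -0.59, -1.88 and -1.19 and fell by 1.23 ± 0.22 (adjusted p = 0.0418, and 0.0535 by voom).

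**Figure D4:**
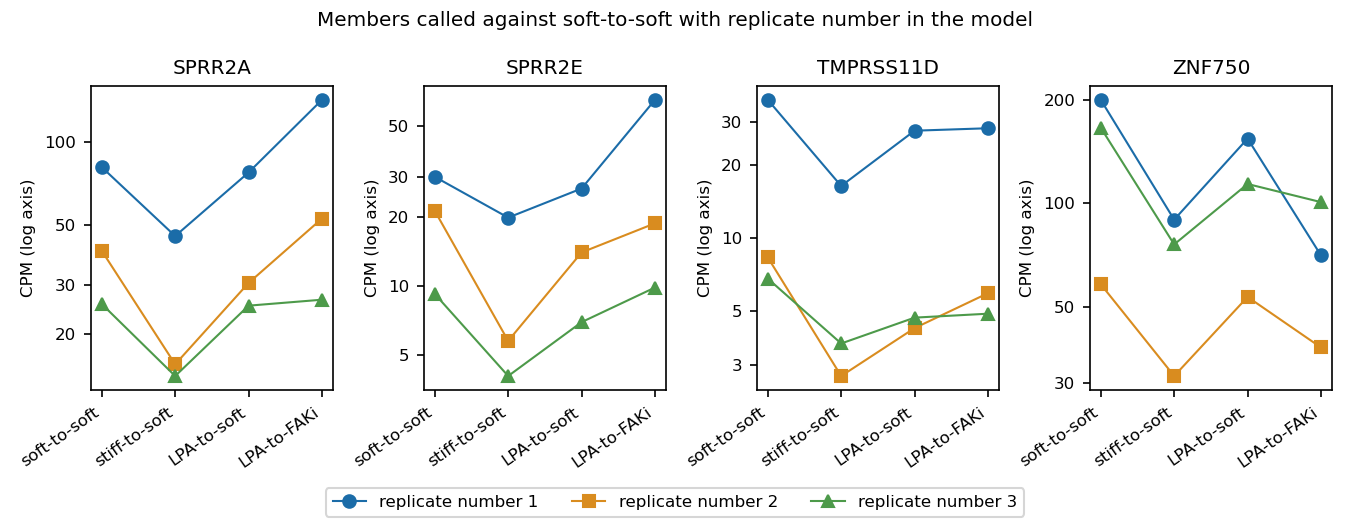
CPM (y axis, log scale) of the 4 members called against soft-to-soft with the replicate block, by condition (x axis), with 1 point per library and lines joining libraries of the same replicate number. In each panel and for each number stiff-to-soft lies below soft-to-soft, and ZNF750 has number 2 as its lowest line.

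Single libraries decided the calls of ZNF750, SPRR2A and SPRR2E. Without soft-to-soft 1 and 2 only soft-to-soft 3 is left of its condition, so whether a call holds cannot be judged there. The fold changes were nearly the same: -1.09 for TMPRSS11D, -1.08 for ZNF750, -1.05 for SPRR2A and -1.31 for SPRR2E. Left out singly, soft-to-soft 1, soft-to-soft 3, stiff-to-soft 2 and stiff-to-soft 3 each ended the call of ZNF750 (adjusted p = 0.0523, 0.0802, 0.0991 and 0.134). The call of SPRR2A was ended by leaving out soft-to-soft 2, soft-to-soft 3, stiff-to-soft 2 or stiff-to-soft 3 (0.0584, 0.0868, 0.11 and 0.0918). That of SPRR2E held in 4 of the 12 fits, those without soft-to-soft 1, LPA-to-soft 1, LPA-to-FAKi 1 or LPA-to-FAKi 3, and in the other 8 the adjusted p was 0.0542 to 0.214. The count of members was 2 without soft-to-soft 2 and 1 without soft-to-soft 3, stiff-to-soft 2 or stiff-to-soft 3. Counts over all genes in those fits are not given.

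Among members that did not pass, KLK11 stood at -1.37 ± 0.27, CERS3 at -1.34 ± 0.27, IVL at -1.26 ± 0.27 and SPRR2D at -0.73 ± 0.17 with the block (log2, edgeR, adjusted p = 0.0531, 0.055, 0.0688 and 0.0903). Within replicate numbers IVL differed by -0.67, -2.48 and -0.82, KLK11 by -0.62, -2.35 and -1.23 and CERS3 by -1.14, -1.29 and -1.64 (log2 CPM). Of the SPRR1 genes, SPRR1A differed by -0.01, -2.96 and -0.5 and SPRR1B by 0.03, -2.61 and -0.58. Their number 1 libraries were level between these conditions, and the gap was widest in number 2. In all, 23 of the 39 members were lower in all 3 replicate numbers and 2 were higher, KLK5 and CALML5. The same counts were not made over all genes, so they have no background. The median difference was -0.39, -1.38 and -0.55 in numbers 1, 2 and 3. By role, all 12 envelope precursors, all 4 scaffold genes and all 4 transcription factors lay below 0 with the block, and 6 of 9 serine proteases. KLK5, KLK6 and KLK7 lay above it.

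LPA conditioning was compared with soft-to-soft in the same way. No member and no gene was called with or without the block (0%; edgeR, at an unadjusted p under 0.05 0 members and 211 genes without it and 10 members and 1231 genes with it). DESeq2 called 0 members without the block and 2 with it, KLK11 at -0.97 and TMPRSS11D at -0.63 (log2, adjusted p = 0.0215 and 0.00563), and voom called 0. With the block 36 of 39 members lay below 0, median -0.42, against 52.9% of all genes. Within replicate numbers the median difference was -0.38, -0.6 and -0.1, and 23 members were lower in all 3. Again this was not counted over all genes. TMPRSS11D differed by -0.42, -0.96 and -0.53 and KLK11 by -0.71, -1.68 and -0.42 (log2 CPM). Both comparisons use the same soft-to-soft libraries, and their values are set side by side only.

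FAK inhibition at replating was compared with LPA-to-soft to ask what it does to cells conditioned with LPA. No member and no gene was called with or without the block (0%; edgeR, at an unadjusted p under 0.05 5 members and 838 genes without it and 19 members and 3439 genes, 22.3% of those tested, with it). DESeq2 called 0 members without the block and 8 with it, and voom called 0. In the fit with the block 31 of 39 members lay above 0, median 0.27, against a median of -0.00378 over all genes. Envelope precursors and serine proteases made up most of these, with 10 of 12 and 8 of 9 above 0. Both barrier lipid genes, FLG, CRNN, CSTA, ZNF750, KLK13 and OVOL1 lay below it.

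SPRR3 was higher in LPA-to-FAKi by 2.83, 1.01 and 1.16 within replicate numbers 1, 2 and 3 (log2 CPM). SPRR1A was higher by 2.34, 0.68 and 0.81 and SPRR1B by 1.93, 0.92 and 0.57. In these genes number 1 differed the most and all 3 numbers had the same sign, as they did for SPRR2D at 1.08, 0.84 and 0.32 and LCE3D at 6.24, 2.19 and 2.57. LCE3D was scarce in numbers 2 and 3, with 52 and 8 counts in LPA-to-FAKi against 8 and 0 in LPA-to-soft. Its differences there depend on the prior count. ABCA12 was lower in all 3, with differences of -0.42, -0.51 and -0.54, and so was ZNF750, with -1.13, -0.49 and -0.17. With the block ABCA12 stood at -0.49 ± 0.1, SPRR2D at 0.76 ± 0.17, LCE3D at 5.35 ± 1.17 and ZNF750 at -0.58 ± 0.15 (log2, edgeR, adjusted p = 0.0752, 0.0757, 0.0757 and 0.09). In all 13 members were higher in all 3 numbers and 5 lower, and the median difference was 0.7, 0.35 and 0 in numbers 1, 2 and 3. All genes were not counted in this way. One library that is in neither condition changed the outcome: without soft-to-soft 2, 8 members were called with the block, 6 higher (SPRR1B, SPRR2A, SPRR2D, SPRR3, LCE3D and LCE3E) and 2 lower (ABCA12 and ZNF750), among 639 genes. Without soft-to-soft 1 and 2 there were 3, without LPA-to-FAKi 2 there was 1 and without LPA-to-FAKi 3 there were 2. For these last fits the counts over all genes are not given.

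**Figure D5:**
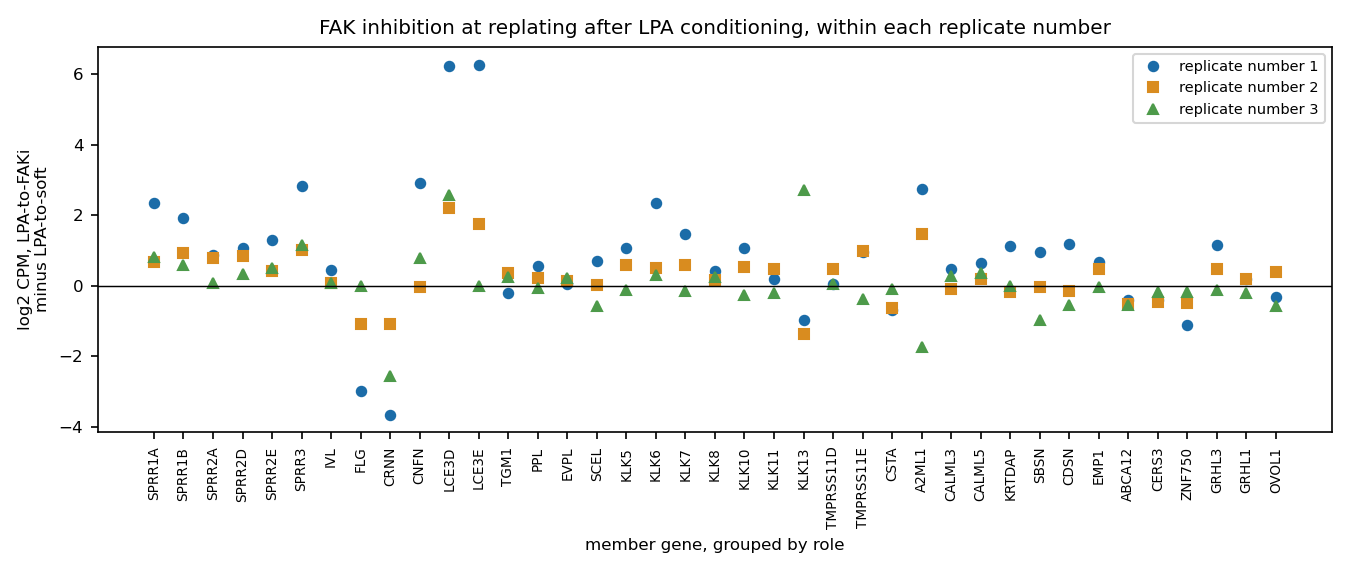
Difference in log2 CPM between LPA-to-FAKi and LPA-to-soft (y axis) within each replicate number (colour and shape) for each of the 39 tested members (x axis, by role). Points of number 1 lie highest for most SPRR, LCE3 and KLK genes, and CRNN, CSTA, ABCA12, CERS3 and ZNF750 have all 3 points below 0.

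LPA-to-FAKi number 1 stood apart from the other libraries of its number in many members. It was above all 3 of them for 24 of the 39 members, more than 2-fold above the highest for 11, and below all 3 for 7. The same counts were not made over all genes. Whether the members differ in this from the other genes of that library cannot be told from them. LCE3D stood at 19.3 CPM there against 0.163 to 0.442, LCE3E at 9.98 against 0.109 to 0.235, A2ML1 at 17.5 against 1.82 to 2.58 and CNFN at 14.9 against 1.45 to 3.33. SPRR3 was at 47.1 against 6.62 to 11.8, SPRR1A at 432 against 85.2 to 138, and KLK6, a trypsin-like kallikrein, at 36.9 against 7.31 to 12.2. The 7 below were FLG, CRNN, TGM1, CSTA, ABCA12, CERS3 and ZNF750, and ZNF750 stood at 70.6 against 89.6 to 199.9 CPM. In that library the SPRR and LCE3 genes were at their highest, and filaggrin, the transglutaminase TGM1 and both lipid genes were below the others of its number. In the same library the leukocyte marker CD68, a lysosomal protein, was at 41.9 CPM against 11.4 to 14.2 in the others numbered 1, and the antigen-presentation gene CD74 at 616 against 1110 to 1540. The part of those differences was not tested.

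LPA-to-FAKi was also compared with soft-to-soft, against which both LPA and the inhibitor differ. Without the block no member and no gene was called (0%; edgeR, 3 members and 548 genes at an unadjusted p under 0.05; DESeq2, 0 members). With the block ZNF750 fell by 0.93 ± 0.15 (log2, edgeR, adjusted p = 0.0295), with differences of -1.5, -0.61 and -0.72 within replicate numbers 1, 2 and 3, and no other member was called, where 0.564% of all genes were, 0.155% higher and 0.408% lower. DESeq2 with the block called 5 members and voom 4. Of the 39 members 17 lay below 0 and 22 above, median 0.11. The call of ZNF750 held in 7 of the 12 fits that left out a library and was ended without LPA-to-FAKi 2, LPA-to-soft 2, stiff-to-soft 3, soft-to-soft 1 or soft-to-soft 3 (adjusted p = 0.0628, 0.0591, 0.0592, 0.126 and 0.138). Without soft-to-soft 1 and 2, which leaves soft-to-soft 3 alone in its condition, ZNF750 stood at -0.95. CSTA, at -0.63 ± 0.14, and CRNN, at -4.98 ± 1.23, did not pass (adjusted p = 0.0732 and 0.0957), and CSTA, CRNN, LCE3E and ZNF750 were the 4 that voom called. Without LPA-to-FAKi 3, 4 members were called, and without soft-to-soft 2 there were 2. How many of all genes were called in those fits is not given.

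No member was called between the learned and not learned classes. Without the block 0 members and 0 genes were called (0%; edgeR, 5 members and 446 genes at an unadjusted p under 0.05; DESeq2, 0 members). With the block 0 members and 1 gene (0.00648%) were called (edgeR, at an unadjusted p under 0.05, 23 members and 1535 genes), voom gave 0 members, and DESeq2 called 5, which were SPRR2D, SPRR3, LCE3D, KLK10 and TMPRSS11D, all lower in the learned class. With the block 36 of 39 members lay below 0, median -0.57, against 51.9% of all genes. LCE3E was called without soft-to-soft 1 (-5.46, adjusted p = 0.0269) and without soft-to-soft 1 and 2 (-5.45, 0.0497). This comparison pools the 4 conditions. Stiff-to-soft against LPA-to-soft, which sets the 2 learned conditions side by side, gave 0 members (edgeR, at an unadjusted p under 0.05 0 members and 215 genes without the block and 8 members and 1454 genes with it). There 0% of all genes were called without the block and 0.00648%, lower, with it. DESeq2 called 0 without the block and 5 with it, SPRR2A, SPRR2E, TMPRSS11D, CERS3 and ZNF750, all lower in stiff-to-soft, and voom called 0. With the block 31 of 39 lay below 0, median -0.24, against 49.8% of all genes. Without LPA-to-FAKi 1, ZNF750 was called (-0.72, adjusted p = 0.0412), and without LPA-to-FAKi 3, SPRR2A was (-0.87, 0.0498).

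Other genes of the same programme were read from lists by function. Beside every list below stands the share of all genes: 19.2% were higher and 20.6% lower in number 1 than in number 3. Between stiff-to-soft and soft-to-soft with the block it was 0.24% higher and 0.343% lower. Of 44 other envelope genes 18 passed the filter, and 14 of these were higher in number 1 than in number 3 and none lower. Repetin (RPTN), a filaggrin-type protein, stood at 20.3, 17.5 and 0.91 CPM in soft-to-soft, 23.3, 2.06 and 0.887 in stiff-to-soft, 9.39, 8.05 and 1.37 in LPA-to-soft and 33.8, 11.9 and 0.731 in LPA-to-FAKi and exceeded number 3 by 4.39 ± 0.56 in number 1 (log2, edgeR, adjusted p = 0.000159). SPRR2G and PRR9 were again seen chiefly in LPA-to-FAKi number 1, at 6.64 and 3.13 CPM against at most 0.201 and 0.147 in the other libraries numbered 1. S100A9, a calcium-binding alarmin and the most counted of the list, stood at 2340, 736 and 2170 CPM in soft-to-soft, 2170, 1590 and 2210 in stiff-to-soft, 2500, 1240 and 1700 in LPA-to-soft and 1270, 643 and 1880 in LPA-to-FAKi and did not differ between numbers 1 and 3 beyond its spread (0.01 ± 0.2, adjusted p = 0.983). None of the 18 was called between stiff-to-soft and soft-to-soft with the block.

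Of 32 other proteases and inhibitors 28 were tested, and 21 were higher in number 1 than in number 3. The 4 with the largest differences were the kallikrein KLK12 at 4.98 ± 0.53, the whey acidic protein family gene WFDC12 at 4.54 ± 0.72, the serine protease TMPRSS11F at 4.39 ± 0.75 and the trypsinogen gene PRSS3 at 4.22 ± 0.41 (log2, edgeR, adjusted p = 5.64e-05, 0.000592, 0.000968 and 3.13e-05). The serpins SERPINB13 and SERPINB3, squamous inhibitors of cysteine proteases, fell in stiff-to-soft with the block by 1.5 ± 0.25 and 0.95 ± 0.17 (log2, edgeR, adjusted p = 0.0286 and 0.0373), the only 2 of the 28 called there. Without soft-to-soft 1 and 2, which leaves soft-to-soft 3 alone in its condition, they stood at -1.06 and -0.73. Each call held in 5 of the 12 fits that left out a library, with adjusted p up to 0.153 and 0.174. Of 27 tested barrier lipid genes 10 were higher and 1 lower in number 1, led by the cholesterol sulfotransferase SULT2B1 at 3.71 ± 0.39 (adjusted p = 4.8e-05), and none was called between stiff-to-soft and soft-to-soft. The share of these 27 called in either direction between numbers 1 and 3 was close to that of all genes, 39.8%.

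Of 40 tested regulators of differentiation 18 were higher and 6 lower in number 1 than in number 3. With the block, 1 of them rose in stiff-to-soft compared with the soft-to-soft libraries and 3 fell. ETS1, an ETS factor of undifferentiated keratinocytes, rose by 0.74 ± 0.11, and the Notch-pathway factors HES2 and HES1 and the Krüppel-like factor KLF5 fell by 0.7 ± 0.09, 0.6 ± 0.11 and 0.54 ± 0.07 (log2, edgeR, adjusted p = 0.0185, 0.012, 0.0449 and 0.012). Without soft-to-soft 1 and 2, soft-to-soft 3 stood alone in its condition. There ETS1 was at 0.61, HES2 at -0.7, HES1 at -0.67 and KLF5 at -0.56. Of 52 tested suprabasal and oral lining genes 40 were higher and 2 lower in number 1, and 2 fell in stiff-to-soft: KRT13, the keratin of oral lining, by 1.41 ± 0.2 and DSG3, a desmosomal cadherin of the lower layers and of oral lining, by 0.66 ± 0.07 (adjusted p = 0.017 and 0.004). KRT13 stood at 655, 346 and 184 CPM in soft-to-soft, 334, 90.4 and 73.1 in stiff-to-soft, 419, 124 and 129 in LPA-to-soft and 296, 172 and 119 in LPA-to-FAKi. CLCA4, a chloride channel accessory protein of squamous lining, stood at 22.3, 1.41 and 1.24 CPM in soft-to-soft, 15.5, 0.356 and 0.335 in stiff-to-soft, 12.7, 0.346 and 0.493 in LPA-to-soft and 2.47, 0.309 and 0.252 in LPA-to-FAKi, with all libraries numbered 1 above the rest. Between numbers 1 and 3 CLCA4 differed by 4.51 ± 0.36, CRCT1 by 6.87 ± 1.45, FAM25A by 3.95 ± 0.84 and CEACAM6 by 3.41 ± 0.35 (log2). CRCT1 stood at 7 CPM in LPA-to-FAKi number 1 and at most 0.428 CPM in any other library. KRT6A, the most abundant of the list, differed by 1.93 ± 0.22. Of the 10 basal markers 2 fell in stiff-to-soft, the keratins KRT14 by 1.68 ± 0.32 and KRT15 by 0.73 ± 0.07 (log2, edgeR, adjusted p = 0.048 and 0.00384). KRT5, at -0.51 ± 0.1, did not pass (adjusted p = 0.0531), and all 10 lay below 0. Of the 8 epithelial identity markers PERP, a desmosomal protein, fell by 0.32 ± 0.06 (adjusted p = 0.0449). With soft-to-soft 3 again alone in its condition, KRT13 was at -1.17, DSG3 at -0.63, KRT14 at -1.14, KRT15 at -0.8 and PERP at -0.3.

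These calls outside the 42 members were also refitted leaving out each library in turn, a check added after the data were seen. DSG3 and KRT15 were called in all 12 fits (adjusted p up to 0.0357 for each). HES2, KLF5 and KRT13 were called in 9, ETS1 in 7, KRT14 in 5, HES1 in 3 and PERP in 1, with adjusted p up to 0.0752, 0.0918, 0.134, 0.136, 0.259, 0.253 and 0.237. Leaving out soft-to-soft 3, stiff-to-soft 2 or stiff-to-soft 3 ended the call of each of these 7 and of both serpins.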

How the data were processed

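RNA of Cal27 cells, 12 libraries, was isolated with the RNeasy kit and sequenced from stranded TruSeq libraries, per the labels' protocols. The deposited values are raw counts of reads per gene symbol. Tools listed in the submitters' processing notes are STAR, HTSeq, cutadapt, FastQC and DESeq2, with the hg19 build. Their versions and roles, the annotation and the strand setting: not given in the sources used here. Low counts in 10 libraries are nearly all even. The members and gene lists were chosen with earlier results of these data known.

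Of 25382 symbols, 15437 passed edgeR's filterByExpr. Counts were scaled by TMM (edgeR 4.0.16, R 4.3.3) and tested with edgeR's quasi-likelihood test over all 4 conditions, without and with replicate number as a block, at a Benjamini-Hochberg adjusted p of 0.05. Log2 CPM used a prior count of 2. The count test was checked on simulated data with 200 changed genes. Same-numbered libraries deviated together from their group means (r 0.312 to 0.659 over 18 pairs, against -0.517 to 0.0372 over 36 pairs of different number, threshold 0.1), so the numbers pair the libraries. Alternatives were DESeq2 1.42.0, limma voom 3.58.1, no low-count filter, the 10 libraries of even counts halved, soft-to-soft 1 and 2 left out, and each library left out in turn. Values in every library are given for members called in any comparison and for the most abundant member of each role. Other genes are named from lists, out of the 4 of largest change among those called between stiff-to-soft and soft-to-soft or between replicate numbers 1 and 3, and the most abundant one. Not every gene that meets this rule is named. Upstream sequences are from RefSeq, GRCh38.p14. Shared 50-base words were counted in the GENCODE transcripts. Floors and intervals cover counting error only.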

Additional observations from a re-analysis of the deposited data

Results flagged for a closer look

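SPRR2A in stiff-to-soft replicate 3 lay below the other libraries numbered 3. Its log2 CPM was 3.81, and the nearest of the other 3 stood at 4.66. The gap took 0.922 of the whole range of the 4 libraries. It was the only one of 65 groups of 4 libraries marked in this way, where chance marks about 1 in 20. The 4 libraries of this group differ in condition. Between stiff-to-soft and soft-to-soft SPRR2A differed by -0.84, -1.38 and -0.87 within numbers 1, 2 and 3 (log2 CPM), so number 3 was not the widest.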

How the results depend on the processing

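Without the replicate block no member was called between conditions under DESeq2, without the low-count filter or with any library left out. With the replicate block, 4 members were called between stiff-to-soft and soft-to-soft, and 9 by DESeq2, 6 by voom, 8 without the low-count filter, 4 with halved even counts and 1 to 6 with each library left out. LPA-to-FAKi against soft-to-soft gave 1 member with the block, and 5, 4, 2 and 1 under the same settings and 0 to 4 with each library left out. The shares of all genes called under these other settings are not given here. DESeq2 with the block gave 5 members between the classes, 2 in LPA-to-soft against soft-to-soft, 8 in LPA-to-FAKi against LPA-to-soft and 5 in stiff-to-soft against LPA-to-soft. With the block and a library left out these gave 0 to 1, 0, 0 to 8 and 0 to 1. Without soft-to-soft 1 and 2 the block fit gave 1 member between the classes and 3 in LPA-to-FAKi against LPA-to-soft, and replicate number 2 against 3 gave 16 instead of 25. Members of at least 10 CPM had mean log2 CPM of 5.331 in soft-to-soft, 4.715 in stiff-to-soft, 4.992 in LPA-to-soft and 5.366 in LPA-to-FAKi, against 3.304, 2.474, 2.791 and 3.181 over all 39. The means over members of at least 10 CPM are higher because the scarcer members are left out of them. Soft-to-soft had the highest mean over all 39, and LPA-to-FAKi over those of at least 10 CPM. What set this order was not tested. Over all 39 members and all settings 28 to 111 of 1247 fold changes took the other sign in each comparison of conditions, and 0 of 662 between replicate numbers 1 and 3. The block changed no other call between conditions than the 5 given (4 and 1).

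Some fold changes without the block changed sign when a library was left out (log2), none of them called. They are listed for members with an unadjusted p under 0.05 in the block fit, a rule chosen after values were seen, as the range over the 12 fits that left out a library each. These fits do not hold replicate number, so leaving out a library leaves the numbers unbalanced between the conditions compared. Between stiff-to-soft and soft-to-soft, with the change of sign without soft-to-soft 1, TMPRSS11D ranged over -2.456 to 0.006185. With the block its range in that comparison was -1.375 to -1.097, and it was called in all 12 fits. In LPA-to-soft against soft-to-soft, with the change of sign without soft-to-soft 1, IVL ranged over -1.454 to 0.1793, EVPL over -0.5171 to 0.02565, KLK11 over -2.127 to 0.01182, KLK13 over -3.843 to 0.05782 and TMPRSS11D over -1.963 to 0.6897. In LPA-to-FAKi against LPA-to-soft, with the change of sign without LPA-to-FAKi 1, SPRR2A ranged over -0.1769 to 1.399, SPRR2E over -0.1581 to 1.567, CNFN over -0.02536 to 2.521 and PPL over -0.07389 to 0.547. In LPA-to-FAKi against soft-to-soft, with the change of sign without LPA-to-FAKi 1, SPRR2A ranged over -0.314 to 1.171, SPRR2D over -0.1449 to 0.9137 and LCE3D over -0.5106 to 4.893. In LPA-to-FAKi against soft-to-soft, with the change of sign without soft-to-soft 1, KLK11 ranged over -1.925 to 0.1914, TMPRSS11D over -1.695 to 0.7821, ABCA12 over -0.75 to 0.1832 and CERS3 over -1.456 to 0.2223. In stiff-to-soft against LPA-to-soft, with the change of sign without LPA-to-soft 1, SPRR2D ranged over -1.001 to 0.1168, IVL over -1.858 to 0.4574 and TMPRSS11D over -1.946 to 0.7648.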
